A study of Homo sapiens with 6 samples.

Results

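The genes described here are 3 Notch receptors (NOTCH1, NOTCH2, NOTCH3), 4 of their ligands (JAG1, JAG2, DLL1, DLL4) and 3 transcriptional targets (HES1, HES4, HEY1). They were chosen by name, with earlier results of these data known, so their counts are a description. Every probe set that the platform annotation gives to 1 of these 10 genes alone was taken. This made 30 of the 49395 probe sets on the array. The RNA came from HCT116, an established human colorectal carcinoma cell line, labelled as colon and cultured in RPMI-1640 with fetal bovine serum and antibiotics. Biotin-labelled total RNA of 3 samples named Ctrl (treatment: control) and 3 named CSF3 was read on 1 Affymetrix array each. CSF3 encodes granulocyte colony-stimulating factor, and the labels do not say whether it was added as a protein or expressed in the cells, nor what the Ctrl cells received. Nothing states that samples within a group were separate cultures, so the p-values speak only of variation among these 6 samples, and that variation may be technical.

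Notch receptors are membrane proteins that are activated by ligands of the Jagged and Delta families on a neighbouring cell. After ligand binding the receptor is cut by an ADAM protease and by γ-secretase, and its intracellular part enters the nucleus, where it joins the DNA-binding protein RBPJ and a Mastermind coactivator and switches on HES and HEY genes. HES and HEY proteins are basic helix-loop-helix repressors. In the intestinal epithelium HES1 represses ATOH1, the transcription factor of secretory cells, and Notch activity thereby keeps progenitors from becoming goblet and enteroendocrine cells.

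The letters that RBPJ reads are shown in the promoters of the pair of HES genes among the members, because both genes had probe sets that were called higher and both hold the letters. The windows searched were 250 bases before to 50 after each gene's start, from RefSeq on GRCh38.p14, and 8 of the 10 genes were in that table (not DLL1 and HEY1). Of these 8, HES1 and HES4 held GTGGGAA on either strand, as did 6.25% of all 35116 promoter windows. The shorter TGGGAA, which lies inside GTGGGAA, was found in the same 2 members and in 24.0% of all windows. The 120 bases before the start of each gene are printed 5′ to 3′ on the gene's strand, for HES1 at chr3:194136028-194136147 (plus strand) and for HES4 at chr1:1000098-1000217 (minus strand), with TGGGAA or GTGGGAA in capitals.
HES1: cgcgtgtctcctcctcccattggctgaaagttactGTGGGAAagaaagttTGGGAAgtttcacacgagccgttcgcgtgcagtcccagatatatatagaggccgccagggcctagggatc
HES4: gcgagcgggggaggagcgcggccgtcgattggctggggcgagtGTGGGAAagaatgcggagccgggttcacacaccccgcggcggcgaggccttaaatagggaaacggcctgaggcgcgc
HES1 held 2 copies of TGGGAA on the same strand, with their first letters 84 and 70 bases before the start and 8 bases between them. HES4 held 1, with its first letter 76 bases before the start. The N box CACNAG, which HES proteins bind, occurred in 5 of the 8 members (NOTCH1, NOTCH2, NOTCH3, DLL4 and HES1) and in 38.0% of all windows, and HES1 held 4 matches of it. Only exact matches to these letters were searched, so sites with variant letters are neither counted nor in capitals. These matches describe the letters of the windows only, since no binding was measured.

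Most Notch probe sets read higher on the CSF3 arrays. At an adjusted p under 0.05 (limma, over all 44988 single-gene probe sets), 19 of the 30 rose, 3 fell and 8 were not called, while of all probe sets 36.7% rose and 28.8% fell. After quantile normalization of the arrays 18 rose and 4 fell, against 28.0% and 25.1% of all probe sets. After cyclic loess, which removes shifts that depend on signal level, 18 rose and 4 fell, against 25.6% and 27.2%. The median change of the 30 was 0.31 on the log2 scale (0.42 and 0.38 under the other scalings), and that of all probe sets was 0.10 (0.040 and 0.012). The groups did not overlap in 25 of the 30 probe sets, against 70.8% of all. With the brightest probe set standing for its gene, 6 of the 10 genes rose and 2 fell (NOTCH1 and NOTCH2), against 44.1% and 26.5% of all 18132 genes; after quantile normalization or cyclic loess 8 rose and 1 fell, against 38.0% and 19.4% of all genes after the former and 35.2% and 20.7% after the latter. Most changes were small: among calls of 1 or more on the log2 scale only 1 Notch probe set rose (HES1) and 1 fell (NOTCH2), against 0.513% and 4.45% of all.

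The arrays differed between groups in more than the genes. The lower quartile of all log2 signals was 2.18 to 2.19 in the Ctrl group and 2.40 to 2.43 in the CSF3 group, while the upper one was 5.63 and 5.37 to 5.40. The gap between the 3′ and 5′ probe sets of GAPDH, a sign of RNA integrity and labelling, was 0.306 ± 0.007 and 0.682 ± 0.003 (log2, SD, n = 3). For ACTB the gap widened more, from 1.34 ± 0.03 to 1.94 ± 0.02. At their median 18 hybridisation control probe sets read 1.53 higher in the CSF3 group. The part of these differences in the Notch results was not tested, and the scaling alternatives are therefore given beside them. CSF3 itself rose on all 3 of its probe sets, with log2 changes from 0.59 to 1.77. Of 10 colon epithelial markers 5 rose and 2 fell (KRT8 and EPCAM), against 44.1% and 26.5% of all genes. In the Ctrl and CSF3 groups KRT18 read 7.26 and 7.48, KRT8 6.37 and 5.06, EPCAM 3.63 and 3.30, and VIL1 1.43 and 1.70. Of 17 measured markers of fibroblasts, endothelium and leukocytes 12 rose and 0 fell (limma, 5 not called), with group means from 1.18 to 4.41. Of all genes 44.1% rose and 26.5% fell. Dim probe sets as a class read higher in the CSF3 group as deposited. Their median changes were 0.18 to 0.28 in bins 1 to 4 of 10 by level, and 0.02 to 0.09 after quantile normalization. The marker counts are given as deposited only. The summed signal of the 6 markers of endothelium, where DLL4 and NOTCH4 are known to be high, was 5.61 to 5.70 on the Ctrl and 6.18 to 6.20 on the CSF3 arrays (log2 of the sum). Of these markers TEK and CLDN5 were not called. The rise was not particular to endothelium: the sums were 5.15 to 5.21 and 5.60 to 5.74 for fibroblasts. They were 5.06 to 5.30 and 5.45 to 5.69 for leukocytes, and 8.24 to 8.26 and 8.15 to 8.20 for colon epithelium. The part of such signal in the Notch results was not tested. All 6 samples are labelled as HCT116, a single cell line, and no label names another cell type. In bulk RNA, a change in the share of cells and a change in RNA per cell cannot be told apart.

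**Figure D1:**
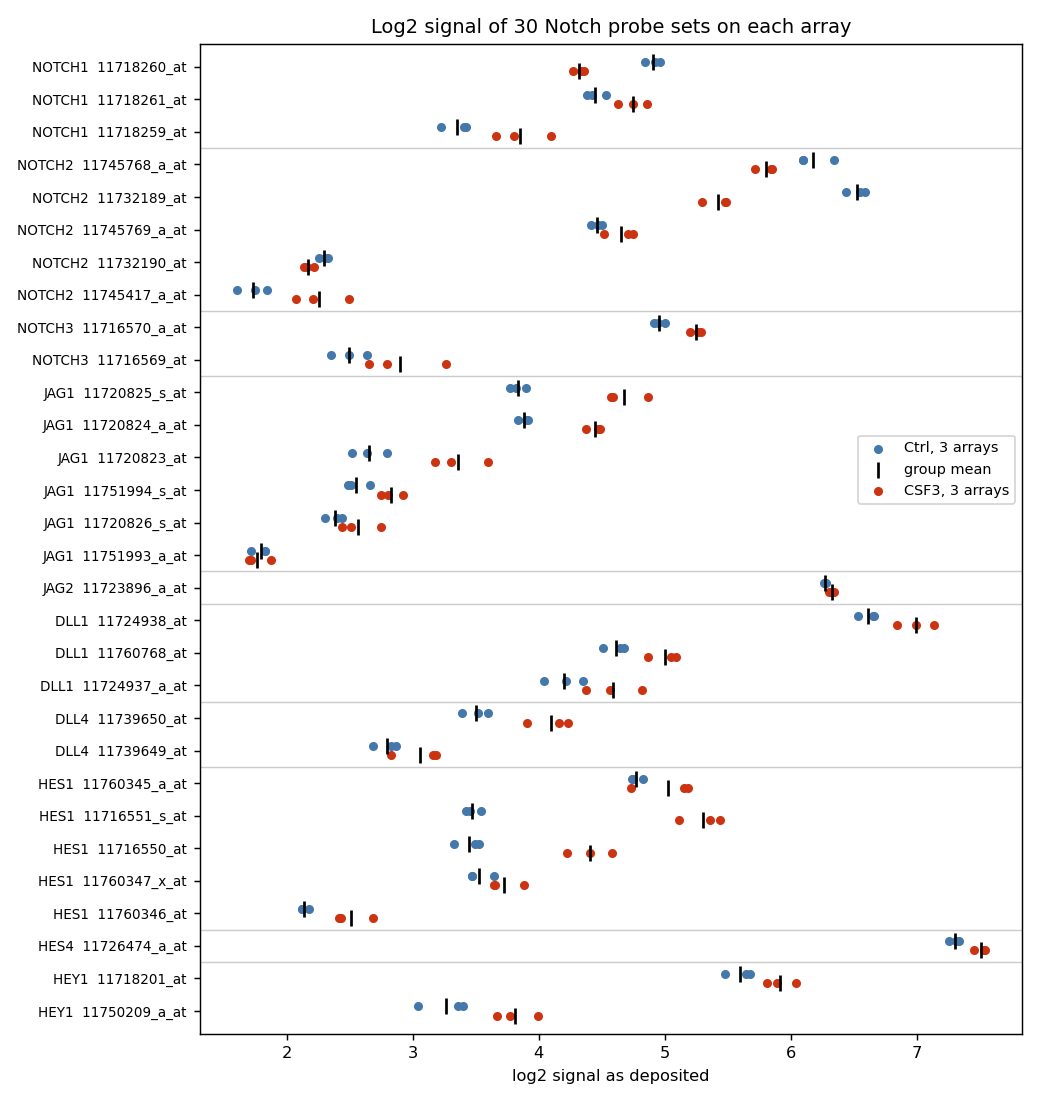
Log2 signal as deposited (x axis) of the 30 single-gene probe sets of the 10 Notch genes (y axis, gene and probe set), with 1 point for each of the 3 Ctrl and 3 CSF3 arrays and a tick at each group mean. HES1 11716551_s_at shows the widest gap upward, from 3.47 to 5.30, and NOTCH2 11732189_at the widest gap downward, from 6.52 to 5.42.

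The receptors went both ways, with 5 of their 10 probe sets higher, 3 lower and 2 not called, or 4 higher and 3 lower after either quantile normalization or cyclic loess. Of all probe sets 36.7% rose and 28.8% fell as deposited, 28.0% and 25.1% after quantile normalization, and 25.6% and 27.2% after cyclic loess. The counts of receptor probe sets lower lie near those shares. NOTCH1, the receptor best known from T cell leukaemia, has 3 probe sets, and they disagreed. The brightest, 11718260_at, read 4.92, 4.85 and 4.96 on the Ctrl arrays and 4.36, 4.33 and 4.28 on the CSF3 arrays. All CSF3 arrays lay below all Ctrl arrays, a fall of 0.59 ± 0.06 on the log2 scale (SE, limma adjusted p = 0.000149). The next, 11718261_at, read 4.53, 4.42 and 4.38 against 4.63, 4.74 and 4.86, and here every CSF3 array was the higher one (0.30 ± 0.08, limma adjusted p = 0.0115). The dimmest, 11718259_at, rose as well, by 0.50 ± 0.12 (limma adjusted p = 0.00693). All 3 calls kept their sign under quantile normalization (-0.43, 0.45 and 0.47) and cyclic loess (-0.50, 0.38 and 0.38), so NOTCH1 has no single direction in these data.

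NOTCH2, a receptor with broad expression in epithelia, held the largest fall among the members. Its probe set 11732189_at read 6.44, 6.59 and 6.54 on the Ctrl arrays and 5.48, 5.49 and 5.29 on the CSF3 arrays. The CSF3 arrays lay well below the others, a 2.15-fold lower signal (log2 change -1.10 ± 0.08 SE, limma adjusted p = 2.83e-05). It ranked 1418th from the bottom of all 44988 probe sets by its change. The fall was -0.85 after quantile normalization and -0.88 after cyclic loess.

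The brightest NOTCH2 probe set by a mean over all arrays, 11745768_a_at, read 6.10, 6.09 and 6.34 against 5.85, 5.84 and 5.71, a smaller fall of 0.38 ± 0.09 (limma adjusted p = 0.00622). That call was lost under quantile normalization (-0.11, limma adjusted p = 0.311) and cyclic loess (-0.15, limma adjusted p = 0.180). A dim probe set, 11745417_a_at, rose by 0.52 ± 0.12 (limma adjusted p = 0.00564), which was also lost under both (0.29 and 0.30). The other 2 probe sets had changes of 0.20 and -0.13 and were not called as deposited, whereas both scalings called them, the first higher (0.34 and 0.27, and also higher by 0.27 without CSF3 replicate 2) and the second lower (-0.35 under each). A further 4 probe sets match NOTCH2 together with its NOTCH2NL and NBPF relatives and so cannot be given to a single gene. Their changes ran from -0.10 to 0.12 as deposited and from -0.31 to 0.31 after quantile normalization.

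NOTCH3, the receptor of vascular smooth muscle, rose on both probe sets as deposited, and on the brighter one alone under each other scaling run. The brighter one, 11716570_a_at, read 4.92, 4.95 and 5.003 against 5.29, 5.26 and 5.20, with no overlap (0.29 ± 0.06, limma adjusted p = 0.00360). It rose by 0.50 after quantile normalization and by 0.46 after cyclic loess. The dimmer one, 11716569_at, read 2.35, 2.50 and 2.64 against 3.26, 2.65 and 2.79, where 1 CSF3 array (replicate 1) stood far above the other two. Its change of 0.41 ± 0.16 barely passed (limma adjusted p = 0.0492), and the call was lost when any array except CSF3 replicate 2 was left out (0.53 without that array, 0.23 to 0.48 without any other). It was also lost after quantile normalization (0.22, limma adjusted p = 0.322), cyclic loess (0.19, limma adjusted p = 0.365) and subtraction of the array medians (0.39, limma adjusted p = 0.0586). The changes of the 2 probe sets differed by 0.11, which is within the spread (exact two-sided permutation p = 0.7, with 0.1 the smallest that 3 against 3 arrays allow).

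As deposited the ligands moved upward or were not called: 8 of their 12 probe sets rose and 0 fell (limma), against 36.7% and 28.8% of all probe sets. After either quantile normalization or cyclic loess 8 rose and 1 fell, the dimmest JAG1 probe set. The shares of all probe sets were 28.0% and 25.1% after the former and 25.6% and 27.2% after the latter. The median change of the ligand probe sets was 0.38 as deposited, 0.53 after quantile normalization and 0.46 after cyclic loess. JAG1, a Jagged ligand and itself a known target of Notch and of NF-κB, rose on 4 of 6 probe sets. On its brightest probe set, 11720825_s_at, the Ctrl arrays read 3.82, 3.90 and 3.78 and the CSF3 arrays 4.86, 4.58 and 4.59. The lowest CSF3 array was well above the highest Ctrl array, a 1.79-fold rise (0.84 ± 0.09, limma adjusted p = 0.000169), or 0.93 after quantile normalization and 0.86 after cyclic loess.

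On 11720824_a_at the arrays read 3.90, 3.83 and 3.92 against 4.47, 4.49 and 4.38, a tighter and smaller rise of 0.56 ± 0.06 (limma adjusted p = 0.000187). On 11720823_at the rise was 0.71 ± 0.12 (limma adjusted p = 0.00157). These 3 probe sets were called under all 14 alternatives run for them. The other 3 JAG1 probe sets were dim, with group means from 1.77 to 2.83, and showed less. Of these, 11751994_s_at rose by 0.27 ± 0.08, which was lost under quantile normalization (0.07), cyclic loess (0.05) and without Ctrl replicate 2 (0.24) or 3 (0.25), and 11720826_s_at had 0.18 ± 0.09 with overlapping groups and an uncalled change below 0 after quantile normalization (-0.03) and cyclic loess (-0.04). The last, 11751993_a_at, had a change of -0.03 ± 0.07 as deposited (95% interval -0.20 to 0.14) and fell after quantile normalization (-0.23) and cyclic loess (-0.24). The first and the last of the dim ones were designed on the same transcript record.

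JAG2, the other Jagged ligand, has 1 probe set, and it barely moved as deposited. It read 6.26, 6.28 and 6.27 against 6.32, 6.34 and 6.30, so the groups did not overlap but differed by only 0.05 ± 0.05 (95% interval -0.07 to 0.18, limma adjusted p = 0.390). Probe sets of that brightness tended to read lower in the CSF3 group (median -0.24 in the bin of equal size by level that holds it), and after quantile normalization JAG2 was called higher by 0.31 (limma adjusted p = 0.00201) and after cyclic loess by 0.29. Its call and the size of its change thus depend on the scaling, while its sign was positive under each scaling run.

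DLL1, the Delta ligand of intestinal secretory progenitors, rose evenly as deposited. Its 3 probe sets had rises of 0.38 ± 0.09, 0.39 ± 0.08 and 0.38 ± 0.12 (limma adjusted p = 0.00616, 0.00410 and 0.0270). On the brightest, 11724938_at, the arrays read 6.65, 6.53 and 6.66 against 7.13, 6.84 and 6.99. Every CSF3 array was above every Ctrl array on all 3 probe sets. The rises were 0.61, 0.57 and 0.50 after quantile normalization and 0.61, 0.51 and 0.43 after cyclic loess. The dimmest of them, 11724937_a_at, lost its call when Ctrl replicate 2 or 3 or CSF3 replicate 1 or 3 was left out (0.27 to 0.39), and kept it at 0.46 and 0.49 without the other two.

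DLL4, a Delta ligand best known from the tips of growing vessels, rose on the brighter of its 2 probe sets. On 11739650_at the arrays read 3.59, 3.39 and 3.51 against 4.23, 3.91 and 4.16 (0.60 ± 0.10, limma adjusted p = 0.00134), and the rise was 0.62 after quantile normalization and 0.52 after cyclic loess. On 11739649_at they read 2.82, 2.69 and 2.87 against 2.83, 3.19 and 3.16, and the groups overlapped through CSF3 replicate 1. That change of 0.26 ± 0.11 was not called (limma adjusted p = 0.0590) but was called without CSF3 replicate 1 (0.38) and with weighted arrays (0.27). The 2 probe sets differed in their change by 0.34 (exact two-sided permutation p = 0.2, with 0.1 the smallest possible).

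**Figure D2:**
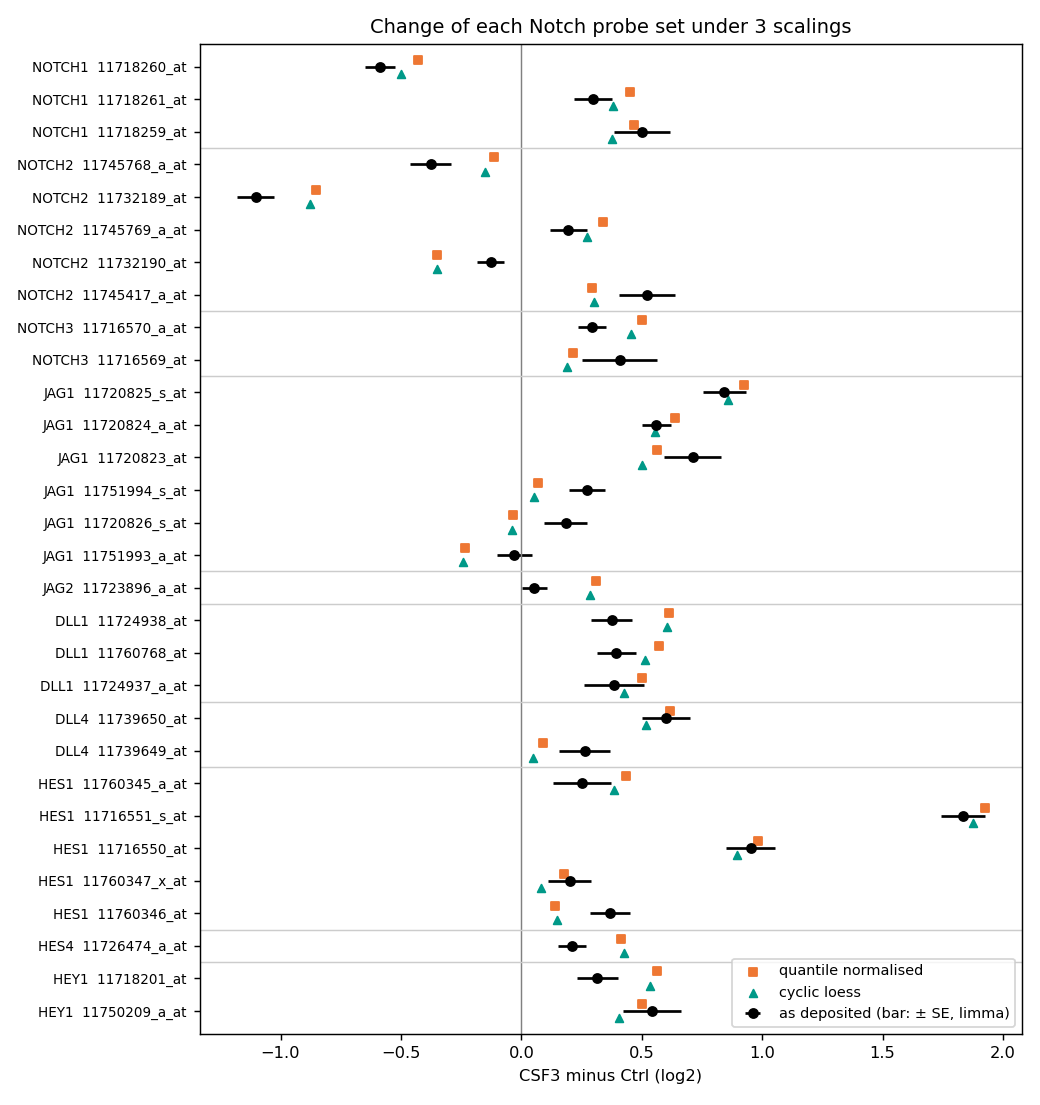
CSF3 minus Ctrl in log2 units (x axis) for each Notch probe set (y axis), as deposited with ± SE of limma (n = 3 arrays a group), after quantile normalization and after cyclic loess. DLL1 shows nearly the same rise on its 3 probe sets as deposited, whereas NOTCH1 and NOTCH2 have probe sets on both sides of 0 under all 3 scalings.

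The targets rose or were not called under all 3 scalings: of 8 probe sets 6 rose and 0 fell as deposited (limma, 2 not called), and the counts were the same after quantile normalization and after cyclic loess. Of all probe sets 36.7% rose and 28.8% fell as deposited, 28.0% and 25.1% after quantile normalization, and 25.6% and 27.2% after cyclic loess. HES1, the main Notch effector of the intestinal epithelium, held the largest change of all members. Its probe set 11716551_s_at read 3.45, 3.42 and 3.54 on the Ctrl arrays and 5.44, 5.36 and 5.11 on the CSF3 arrays. The groups stood far apart, with a 3.56-fold higher signal (log2 change 1.83 ± 0.09 SE, 95% interval 1.62 to 2.05, limma adjusted p = 1.02e-05). By its change it ranked 15th of all 44988 probe sets, 14th after quantile normalization and 17th after cyclic loess.

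The probe set 11716550_at, designed on another HES1 record, read 3.53, 3.33 and 3.49 against 4.58, 4.41 and 4.22. It rose 1.94-fold (0.95 ± 0.10, limma adjusted p = 0.000174), about as much after quantile normalization (0.98) and cyclic loess (0.90), and ranked 303rd. The other 3 HES1 probe sets were designed on a single transcript record and showed much less. The brightest of all, 11760345_a_at, read 4.74, 4.74 and 4.82 against 5.15, 4.73 and 5.18. CSF3 replicate 2 lay at the Ctrl level and the other two above it. The change of 0.25 ± 0.12 was not called (limma adjusted p = 0.0986), but it was called after quantile normalization (0.43), after cyclic loess (0.39) and without CSF3 replicate 2 (0.40).

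On 11760347_x_at the difference was 0.20 ± 0.09, with overlapping groups, and it was not called under any scaling (limma adjusted p = 0.0774 as deposited). On 11760346_at the rise of 0.37 ± 0.08 (limma adjusted p = 0.00616) was lost after quantile normalization (0.14) and cyclic loess (0.15). The 5 HES1 probe sets thus ran from 0.20 to 1.83, a span of 1.63. This pair of extremes was picked for its difference and was not tested. A suffix of _s_at or _x_at marks probe sets that may hybridise with more than 1 transcript.

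HES4, a HES family member with 1 probe set here, read 7.31, 7.33 and 7.25 against 7.53, 7.54 and 7.45. The groups did not overlap, and the rise was small (0.21 ± 0.06, limma adjusted p = 0.0151) and lost when Ctrl replicate 3 was left out (0.19), while it was 0.41 after quantile normalization and 0.43 after cyclic loess. HEY1, a target with roles in vessels and heart, rose on both probe sets. On 11718201_at the arrays read 5.68, 5.64 and 5.48 against 6.04, 5.81 and 5.89 (0.32 ± 0.08, limma adjusted p = 0.0125). On the dimmer 11750209_a_at they read 3.05, 3.36 and 3.40 against 3.66, 3.996 and 3.77 (0.54 ± 0.12, limma adjusted p = 0.00544). No CSF3 array fell into the Ctrl range on either, both calls held under all 14 alternatives run for them, and the 2 changes differed by 0.23 (exact two-sided permutation p = 0.5, with 0.1 the smallest possible).

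**Figure D3:**
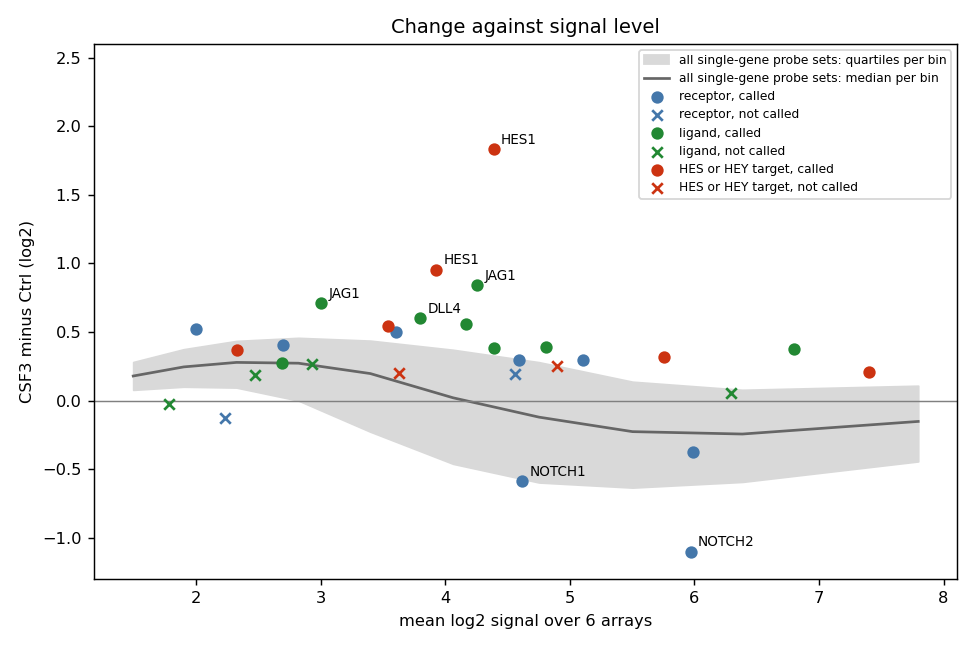
CSF3 minus Ctrl in log2 units (y axis) against the mean log2 signal over 6 arrays (x axis) for the 30 Notch probe sets, coloured by role, with crosses for those not called; the line and band give the median and quartiles of all single-gene probe sets in 10 equal bins by level. The line runs from 0.28 among dim to -0.24 among bright probe sets, and those outside the band include 2 HES1 probe sets (1.83 and 0.95) and 2 JAG1 probe sets (0.84 and 0.71) above it and NOTCH2 (-1.10) below it.

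The rest of the pathway was split. Of 64 further genes analysed here in 8 lists, by their brightest probe set 24 rose, 22 fell and 18 were not called, against 44.1% and 26.5% of all genes. Their median change was 0.06, that of all genes 0.16. After quantile normalization 26 rose and 17 fell, against 38.0% and 19.4% of all genes. After cyclic loess 24 rose and 18 fell, against 35.2% and 20.7%. The same shares of all genes belong beside the counts of each list below. The lists were chosen with earlier results of these data known, so their counts are a description. Each count of 0 given here for a role, list or marker group as deposited was also 0 at an unadjusted p under 0.05 and in the fit without moderated variances.

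By their brightest probe set further receptor and ligand genes mostly rose, with 5 of 6 higher and 0 lower (limma, EGFL7 not called; 5 and 0 after quantile normalization, 4 and 0 after cyclic loess). The 3 probe sets of EGFL7 had changes from -0.32 to -0.11 as deposited, and 1 of them was called lower. NOTCH4, the receptor of endothelium, rose from 4.11 ± 0.11 to 4.81 ± 0.15 (SD, n = 3; 0.69 ± 0.09 SE, limma adjusted p = 0.000495), on all 4 of its probe sets. The divergent Delta ligand DLL3 rose by 0.28 ± 0.06 on its brightest and by up to 0.52 on its other probe sets. DLK1, an atypical ligand that can inhibit the pathway, rose by 0.82 ± 0.12, from a dim 2.58. DNER, another atypical ligand, rose by 0.43 ± 0.08 at a still dimmer 1.55, a call lost after cyclic loess (0.22).

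Most genes of the machinery that cuts the receptor fell. Of 8 measured genes 6 fell and 0 rose (limma; 5 fell and 1 rose, FURIN, after quantile normalization, and 6 and 1 after cyclic loess), with a median change of -0.54, or -0.36 under either. ADAM10, the protease of the ligand-induced cut, fell by 1.20 ± 0.10 (limma adjusted p = 6.30e-05), from 5.59 ± 0.08 to 4.38 ± 0.19, and all 4 of its probe sets fell. ADAM17, a related protease, fell by 0.62 ± 0.06 on its brightest and on 3 of 4 probe sets. APH1B, a subunit of γ-secretase, fell by 1.14 ± 0.06 (limma adjusted p = 1.01e-05) and on 5 of 6 probe sets. The 3′ to 5′ gaps of GAPDH (0.682 against 0.306) and ACTB (1.94 against 1.34) were wider on the same CSF3 arrays. Their part in these falls was not tested.

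Genes that modify receptors or activate ligands went both ways, with 4 of 9 higher and 3 lower (5 and 3 after quantile normalization and after cyclic loess). MIB1, the ubiquitin ligase that makes ligands active by endocytosis, fell by 1.01 ± 0.08 (limma adjusted p = 3.88e-05), and all 5 of its probe sets fell, from -0.68 to -1.41. POGLUT1, which adds glucose to the receptor, fell by 0.73 ± 0.08, on all 3 probe sets. NEURL1, a second kind of ligase for ligands, rose by 0.38 ± 0.06, on 1 of 4 probe sets. Trafficking and turnover genes were split too, with 4 of 9 higher and 3 lower as deposited and 3 and 1 after quantile normalization or cyclic loess. AAK1, an endocytic kinase, rose by 0.68 ± 0.06 while its 6 probe sets ran from -0.68 to 0.82, and NUMBL, of the Numb family of Notch inhibitors, rose by 0.41 ± 0.07. FBXW7, which marks the Notch intracellular part for degradation, fell by 0.36 ± 0.06 on the brightest of its probe sets, which was called neither after quantile normalization (-0.11) nor after cyclic loess (-0.16). Of its 3 probe sets, which ran from -0.48 to 0.63, 2 fell and 1 rose.

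In the nuclear complex 1 of 9 genes rose and 4 fell, or 2 and 3 after quantile normalization and after cyclic loess. RBPJ, the DNA-binding partner whose letters are printed above, read 8.87 ± 0.10 and 8.56 ± 0.02. It fell by 0.31 ± 0.07 on the brightest of its probe sets (limma adjusted p = 0.00462), no longer called after quantile normalization (-0.19) and cyclic loess (-0.16), and 4 of its 6 probe sets fell, the lowest at -1.17. The coactivator genes parted: MAML1 fell by 0.79 ± 0.07 on its brightest probe set while its other one rose by 0.91, and MAML2 rose by 0.66 ± 0.09 on its brightest and on both probe sets. KAT2B, an acetyltransferase of the complex, fell by 0.97 ± 0.08. Among corepressors 3 of 8 rose and 4 fell (3 and 3 after quantile normalization and after cyclic loess). TLE4, a Groucho corepressor that HES proteins recruit, rose by 1.30 ± 0.11 (limma adjusted p = 5.59e-05) on 1 of 3 probe sets. CTBP1 and CTBP2, corepressors that act with RBPJ, fell by 0.72 ± 0.06 and 0.54 ± 0.05, on all 4 and all 7 of their probe sets.

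Other targets rose in 4 of 9 cases and fell in 2 (6 and 2 after quantile normalization, 5 and 2 after cyclic loess). HES2 rose by 0.66 ± 0.07, from 2.59 to 3.25. The 2 that fell were CCND1, which encodes cyclin D1, by 0.97 ± 0.06, and MYC, by 0.35 ± 0.06, both of them genes with many regulators besides Notch. GTGGGAA was found in the windows of HES5, HEY2 and HEYL of the 7 of these 9 genes in the promoter table. As deposited, HEY2 rose by 0.36 ± 0.07 (0.15 and not called after cyclic loess) and HEYL by 0.36 ± 0.10, while HES5 had 0.28 ± 0.11 and was not called (limma adjusted p = 0.0616). These 3 were named for their promoter match after values were seen.

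Intestinal genes downstream of Notch were dim for the most part. Of 6, 3 rose and 0 fell (limma), but 1 alone, SPDEF, was called after quantile normalization and after cyclic loess. ATOH1, which HES1 represses, read 2.10 ± 0.12 and 2.47 ± 0.23 and rose by 0.37 ± 0.12 (limma adjusted p = 0.0254), a call lost under both (0.15 each). OLFM4, a crypt gene, read 1.58 ± 0.07 and 1.98 ± 0.31 and rose by 0.40 ± 0.14, lost under both as well (0.19 each). SPDEF, a goblet cell factor, rose by 0.40 ± 0.08, or 0.65 after quantile normalization and 0.61 after cyclic loess. Without detection calls these dim signals are not known to lie above background. The same limit holds for members with low signal in the Ctrl group, where the array median was 3.68. Among them are HES1 11716551_s_at (3.47) and 11716550_at (3.45), DLL4 11739650_at (3.50) and JAG1 11720823_at (2.65).

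**Figure D4:**
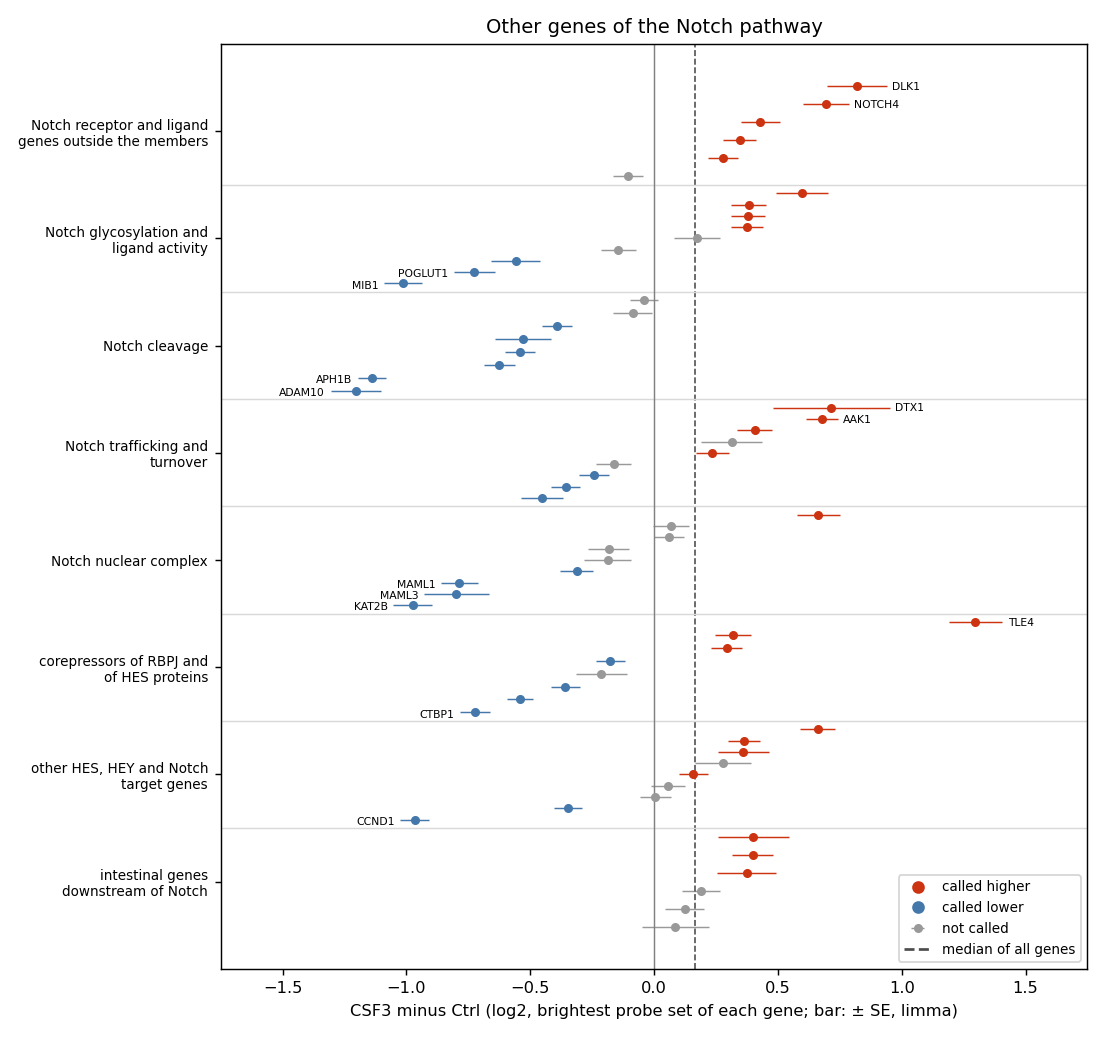
CSF3 minus Ctrl in log2 units (x axis, ± SE of limma, n = 3 arrays a group) of the brightest probe set of 64 other Notch pathway genes in 8 lists (y axis), coloured by call, with a dashed line at the median of all genes (0.16). The cleavage genes lie at or below 0, with ADAM10 at -1.20 and APH1B at -1.14, and TLE4 stands highest at 1.30.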

How the data were processed

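The authors deposited 1 table of values per probe set for 6 Affymetrix arrays, read here as log2 from the values themselves (0.81 to 12.7). Base, background correction, summarisation and normalization are stated nowhere in the labels, thus not given in the sources used here; with another base every fold would change. Scanner files and detection calls were not used here, and precision is limited by having 6 arrays. Names come from the platform annotation: 44988 have 1 gene, 1832 several (left out), 2473 none, and 102 are array controls; Entrez identifiers matched RefSeq GRCh38.p14 for 44961 and changed 0 symbols.

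CSF3 minus Ctrl was fitted on all 44988 single-gene probe sets in limma 3.58.1 (lmFit, eBayes; R 4.3.3), without covariates, with Benjamini-Hochberg adjustment and a threshold of 0.05. Changes are log2 differences ± SE. Gene counts use the brightest probe set, by its mean of the 6 arrays. In a simulated CSF3 against Ctrl comparison that used the spreads of the 44988 probe sets, 50 of each size changed, 0% were recovered at 0.25, 38% at 0.5, 80% at 1 and 98% at 2 (log2), and 4 unchanged ones were called. Far fewer probe sets changed there than in the data, where 36.7% rose and 28.8% fell. The adjustment was therefore stricter in the simulation, and its shares do not give the recovery of the fit to the data.

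The members and lists were chosen with earlier results of these data known. Named were all 10 members, NOTCH4, DLL3, RBPJ and ATOH1, and the 3 genes of each list with the smallest p. EGFL7, FURIN, HES5, HEY2 and HEYL were named after their values were seen. Some listed genes are not reported here.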

Additional observations from a re-analysis of the deposited data

How the results depend on the processing

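Each of the 30 probe sets was refitted under up to 14 alternatives: quantile normalization, cyclic loess, centring on array medians, a filter on the 30% dimmest probe sets (which removed 5 members), eBayes with trend and robust settings, Student's test without moderation, weighted arrays, a replicate block, and leaving out each array. Of 415 such refits 371 kept the call, 26 lost one, 18 gained one and 0 turned a called direction; 17 probe sets, 15 of them called, kept their call throughout. The counts of Notch genes lower fell from 2 to 1 under quantile normalization, cyclic loess and averaging over a gene's probe sets. The shares of all genes lower were 19.4%, 20.7% and 28.2% there, against 26.5% as deposited. With a change of at least 1 required, 1 probe set rose and 1 fell (from 19 and 3), 0 genes rose and 0 fell by their brightest probe set, where 6 and 2 were called by limma without that minimum, and of the other pathway genes 1 rose and 3 fell (from 24 and 22). That minimum left 0.513% of all probe sets higher and 4.45% lower. Leaving out single arrays gave 15 to 21 Notch probe sets higher and 3 lower, 5 to 7 genes higher and 2 lower, and 18 to 24 other pathway genes higher and 21 to 23 lower. In those refits 29.5% to 35.5% of all probe sets rose and 25.8% to 28.6% fell. For all genes the shares as deposited were 44.1% and 26.5%, and none are given for those refits. The sign of the uncalled JAG1 11751993_a_at also turned when single arrays were left out (-0.08 to 0.0042). That of the uncalled JAG1 11720826_s_at turned under quantile normalization (-0.03) and cyclic loess (-0.04). The labels number the samples alike in both groups, but same-numbered arrays did not deviate together (r = 0.026, 0.015 and 0.026 across probe sets), although each was closest to its own number, a hint from the data and not from the design. With the replicate block 18 Notch probe sets rose and 3 fell, against 35.8% and 28.1% of all, and the dim NOTCH3 probe set lost its call.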
